A study of Mus musculus with 8 samples.

Results

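The enzymes of haem synthesis were followed in whole mouse embryos with and without Runx1, a transcription factor required for definitive blood formation. The 8 genes were *Alas1*, *Alas2*, *Alad*, *Uros*, *Urod*, *Cpox*, *Ppox* and *Fech*, taken in the order of the pathway. They were chosen by name, as the probe sets that the array annotation assigned to 1 of these symbols alone. All 8 were measured, by 19 of the 45037 probe sets tested and as 8 of the 18193 genes named. Each gene was read from the probe set with the highest mean over the 8 arrays, and its other probe sets served as a check. The enzymatic step between *Alad* and *Uros* was not analysed here.

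Total RNA came from embryo propers, that is, the embryo itself, of a BALB/c background. The 4 groups were E8.5 wild type, E8.5 *Runx1* knockout, E12 wild type and E12 *Runx1* knockout (E, embryonic day), with 2 arrays each and no treatment. The study's methods call the 2 arrays biological replicates, and the sources used here do not say how many embryos went into an array. The knockout was constitutive, so the arrays compare whole embryos and not a selected blood cell. Values are given as log2 of the intensity of a probe set, on which 1 unit is a doubling. Values after ± are SD with n = 2 arrays. In such whole-embryo RNA, fewer cells of a type and less RNA per cell cannot be told apart.

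Haem is assembled partly in mitochondria and partly in the cytosol. Synthesis starts when glycine and succinyl-CoA are joined by 5-aminolevulinate synthase, encoded by *Alas1* in most tissues and by *Alas2* in cells of the red lineage. *Alad*, *Uros* and *Urod* then build and trim the porphyrin ring in the cytosol, *Cpox* and *Ppox* oxidise it, and *Fech* inserts iron. Every cell needs some haem for its cytochromes, but red-cell precursors make by far the most, for haemoglobin. At E8.5 the blood of a mouse embryo holds primitive red cells made in the yolk sac. By E12 the fetal liver has begun to make definitive red cells, which *Runx1* knockout embryos do not form, while their primitive red cells do form.

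Before the enzymes, the labels and the arrays were examined. The brightest *Runx1* probe set read 5.95 to 6.16 in the E8.5 wild-type arrays and 6.41 to 6.86 in their knockout counterparts, and at E12 the ranges were 6.39 to 7.06 and 6.86 to 7.10. Of 6 *Runx1* probe sets, 0 were lower in the E8.5 knockout and 3 in the E12 knockout. No map of these probe sets to the disrupted part of the gene was used here, so *Runx1* did not check the labels. Platelet genes did separate the genotypes at E12, with a mean over 10 genes of 7.02 to 7.17 in the wild-type arrays and 5.02 to 5.03 in the knockouts. At E8.5, 7 of the 10 were lower in knockout, with a median of -0.04, against 53.1% of all probe sets. The E8.5 labels were thus not checked by these genes. Red cells were present in every array by *Hbb-bh1*, an embryonic beta-type globin, at 11.9 to 14.3. The probe set of *Hba-a1*, an adult alpha-type globin, stayed between 4.79 and 5.31, near the array medians of 4.96 to 5.20. It was the only probe set assigned to that symbol alone, and probe sets with several symbols were not used. Whether it reports the gene was not tested, so its values do not show that adult alpha globin was absent. Both wild-type arrays at E8.5 stood apart. Replicate 1 had a mean over 6 trophoblast genes of 7.66, where the remaining arrays of the stage lay at 5.46 to 5.58, and replicate 2 had poly-A control probe sets at 12.1 against 6.19 to 8.27. In replicate 1 *Plac1* (13.3), *Hand1* (9.95) and *Tpbpa* (9.52) were high, while *Psg21* (4.90), *Ctsq* (4.66) and *Psg17* (3.64) were near the other arrays of the stage. The 3′ minus 5′ difference of the actin control probe sets, a sign of RNA quality, was 1.48 and 1.56 in replicate 1 of both E8.5 genotypes, 2.61 and 2.50 in replicate 2, and 1.43 to 1.84 at E12. Its part in the values was not tested.

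Whole-array scaling also differed between stages. The 99th percentile of log2 intensity ranged from 12.2 to 12.3 over the earlier arrays and from 10.5 to 11.1 over the later ones, and it is not known whether the 8 arrays were normalized together. Comparisons between stages were therefore repeated for the 8 enzymes, by their brightest probe sets, after quantile normalization of all 8 arrays. Stage differences of their other probe sets and of other named genes are given as deposited only.

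The first question was whether the enzymes differed between knockout and wild type embryos at E12. All 8 had a lower mean in knockout, with differences of -0.05 to -1.12 and a median of -0.36, where the median over all probe sets was 0.011 and 47.5% of them lay below 0. The difference was widest for *Cpox*, and narrowest for *Alas1* and *Alas2*, the enzymes of the first step. None of the 8 passed an adjusted p of 0.05 (limma, Benjamini-Hochberg), against 0.0133% of all probe sets, and 1 of 8 had an unadjusted p below 0.05, against 1.58%. A moderated t beyond 3 in either direction is the threshold that the methods of the study give, and it was passed downwards by 1 of 8 (*Cpox*), against 0.473% of all probe sets. Knockout arrays lay below both wild-type arrays for 4 of 8 (*Alad*, *Urod*, *Cpox* and *Fech*), against 15.8% of all probe sets, and above them for 0 of 8, against 12.6%. Wild type replicate 2 was the highest of the 4 arrays for 6 of 8 enzymes. Without it, 5 of 8 were lower, with a median of -0.08.

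**Figure D1:**
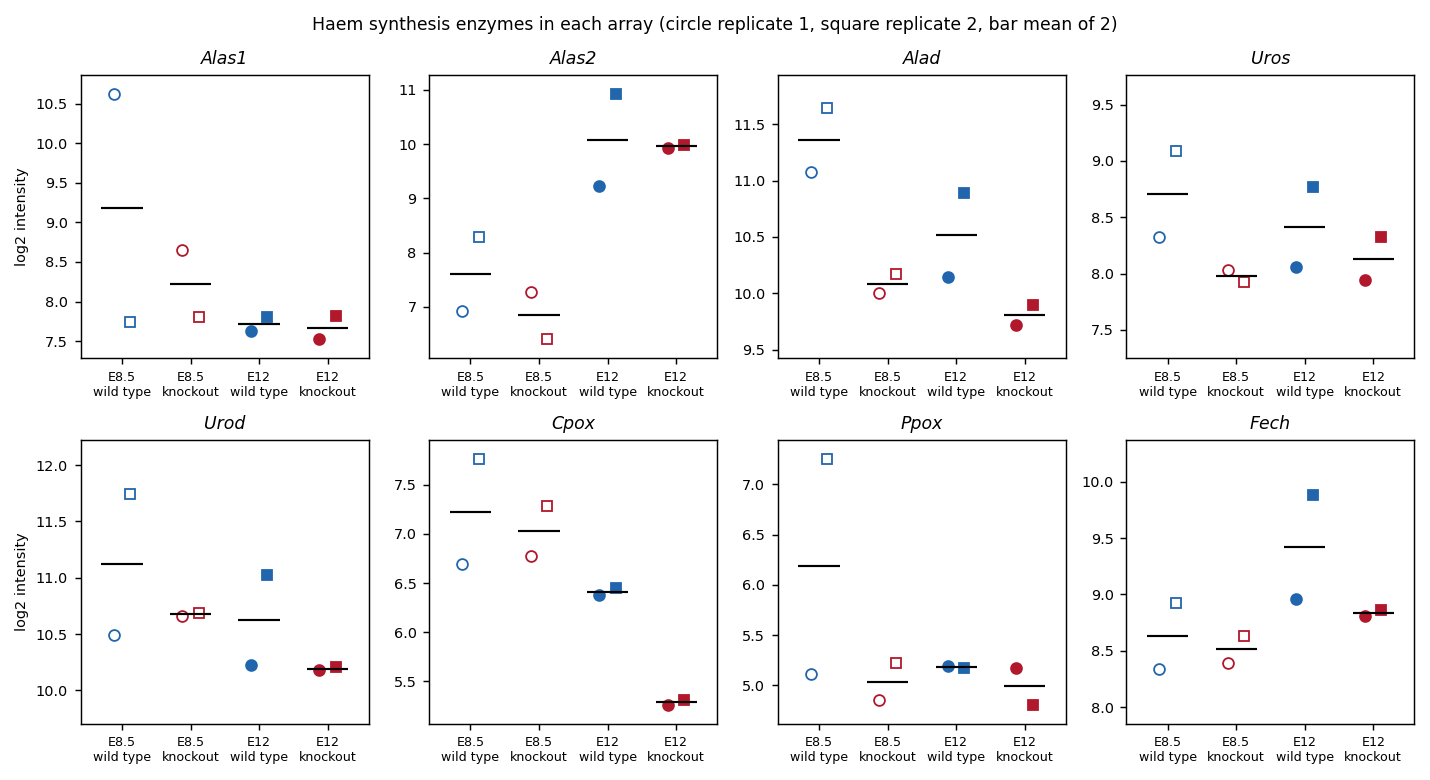
Log2 intensity (vertical axis, scaled for each panel) of the 8 enzymes in pathway order, drawn open at E8.5 and filled at E12, with wild-type arrays in blue and knockout arrays in red; circles are replicate 1, squares replicate 2, and bars the mean of the 2 arrays. *Alas2* is higher at E12 in every array, from 9.23 to 10.9 against 6.401 to 8.28 at E8.5, and the 2 E12 knockout arrays of *Cpox* (5.26 and 5.31) lie below all other arrays of that gene.

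*Cpox* encodes coproporphyrinogen oxidase, which acts in the space between the mitochondrial membranes. At E12 its wild-type arrays read 6.38 and 6.45 and its knockout arrays 5.26 and 5.31, as group means 6.41 ± 0.05 and 5.29 ± 0.03. Both knockout arrays were thus lower by over 1 unit, and the replicates of each genotype differed by far less than the genotypes. The difference was -1.12 (SE 0.36, 95% interval -1.98 to -0.27, t = -3.16), or 2.18-fold lower, with an adjusted p of 1.000 over all probe sets. A second *Cpox* probe set gave -0.94 (SE 0.20, t = -4.60), with wild-type arrays at 6.11 and 6.15 and knockout arrays at 4.93 and 5.46. The dimmest *Cpox* probe set, at 3.94 to 4.16 over the E12 arrays, gave -0.09. Leaving out wild type replicate 2 left the difference of the brightest probe set at -1.09. At E8.5 the wild-type arrays of the brightest probe set read 6.69 and 7.76 and the knockout arrays 6.77 and 7.28. These arrays overlapped, and the difference was -0.20 (SE 0.36, 95% interval -1.05 to 0.65). Without E8.5 wild type replicate 2 it turned to 0.34. Whether the knockout difference of *Cpox* itself differed between stages was tested in the same fit, which gave -0.92 (SE 0.50, 95% interval -2.13 to 0.28, adjusted p = 1.000).

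*Alad* encodes aminolevulinate dehydratase, the second enzyme of the pathway. At E8.5 its wild-type arrays read 11.1 and 11.6 and its knockout arrays 10.00 and 10.2. The E12 values were 10.1 and 10.9 with *Runx1* and 9.72 and 9.90 without it. At both stages the 2 knockout arrays lay below both wild-type arrays, although wild type replicate 2 was the highest array each time. The difference was -1.27 at E8.5 (SE 0.30, 95% interval -1.998 to -0.55, t = -4.23, adjusted p = 0.984), or 2.42-fold lower. It was -0.71 at E12 (SE 0.30, 95% interval -1.43 to 0.013, t = -2.36, adjusted p = 1.000). Without wild type replicate 2 of the stage, the differences were -0.99 at E8.5 and -0.34 at E12. A second *Alad* probe set gave -1.26 at E8.5 and -0.67 at E12, again with no overlap of the genotypes at either stage. Averaged over stages, *Alad* differed by -0.99 (SE 0.21, 95% interval -1.504 to -0.48, t = -4.65, adjusted p = 1.000), and was the 1 of 8 past the study's threshold downwards in that average, against 1.09% of all probe sets. The 2 stages' differences were 0.56 apart (SE 0.43, adjusted p = 1.000).

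The sequences before the start of these genes are shown for *Cpox* and *Alad*, the enzymes past the threshold of the study's methods at E12 and at E8.5, and for *Alas2*, which was called higher at E12 than at E8.5 in both genotypes. GATA factors and KLF1 are regulators of red-cell genes that bind short motifs in promoters, and RUNX factors bind a short motif of their own. RefSeq promoter windows (GRCm38.p6), here the 250 bases before an annotated start, were given for 7 of the 8 genes, in 10 windows, and not for *Fech*. They lie at chrX:150547167-150547416 on the plus strand for *Alas2*, at chr16:58669958-58670207 on the plus strand for *Cpox*, and at chr4:62520064-62520313 on the minus strand for the outermost start of *Alad*. Each reads 5′ to 3′ along the gene, with GATA matches in capitals. The GATA letters searched on both strands were AGATAA and likewise AGATAG, and those with T in first place, TGATAA and likewise TGATAG.
Alas2: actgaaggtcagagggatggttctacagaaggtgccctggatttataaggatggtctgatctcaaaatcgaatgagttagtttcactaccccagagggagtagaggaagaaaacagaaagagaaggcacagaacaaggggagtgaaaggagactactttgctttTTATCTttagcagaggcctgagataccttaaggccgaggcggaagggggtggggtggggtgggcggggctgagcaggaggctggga
Cpox: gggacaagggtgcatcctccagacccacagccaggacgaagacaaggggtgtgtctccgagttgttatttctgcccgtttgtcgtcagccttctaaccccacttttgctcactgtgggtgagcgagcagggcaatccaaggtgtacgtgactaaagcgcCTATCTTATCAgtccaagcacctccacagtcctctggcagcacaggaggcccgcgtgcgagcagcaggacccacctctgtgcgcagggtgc
Alad: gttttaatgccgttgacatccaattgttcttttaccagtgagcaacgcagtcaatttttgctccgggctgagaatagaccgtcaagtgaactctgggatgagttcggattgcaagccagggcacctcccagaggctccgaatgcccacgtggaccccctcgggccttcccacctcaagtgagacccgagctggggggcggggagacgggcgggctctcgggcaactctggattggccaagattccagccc
GATA letters stood in the windows of 3 of the 7 genes (*Alas2*, *Uros* and *Cpox*), in 3 of 10 windows, and in 26.5% of all 32851 windows of that length. *Alas2* held TTATCT at 86 to 81 bases before its start. *Cpox* held CTATCT at 91 to 86 and TTATCA at 86 to 81, a pair that shares 1 base. The RUNX letters TGTGGT or TGCGGT, on either strand, stood in 1 of 10 windows (*Urod*, at 199 to 194 bases before the start) and in 18.6% of all windows. The KLF letters CCNCNCCC stood in windows of 4 of the 7 genes (*Alas1*, *Alas2*, *Alad* and *Uros*), in 6 of 10 windows, and in 45.9% of all windows. In the printed *Alad* window they matched at 58 to 51 and at 56 to 49 bases before the start, overlapping each other. Such matches describe the letters of a window and not a bound site.

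The same question was asked at E8.5. Again all 8 enzymes had a lower mean in knockout, by -0.12 to -1.27 with a median of -0.74, where the median over all probe sets was -0.018 and 53.1% of them lay below 0. None of the 8 passed an adjusted p of 0.05 (limma), nor did any probe set (0%), and 1 of 8 had an unadjusted p below 0.05, against 4.73%. *Alad* was the 1 of 8 past an absolute t of 3 downwards, against 1.18% of all probe sets. Arrays of the 2 genotypes did not overlap for 2 of 8 (*Alad* and *Uros*), both lower in knockout, against 16.1% of all probe sets, and 0 of 8 were higher in both knockout arrays, against 13.2%. Wild type replicate 2 was the highest of the 4 arrays for 7 of 8 enzymes. Without it 5 of 8 were lower, with a median of -0.08, and *Urod* (0.18), *Cpox* (0.34) and *Fech* (0.18) had the opposite sign.

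**Figure D2:**
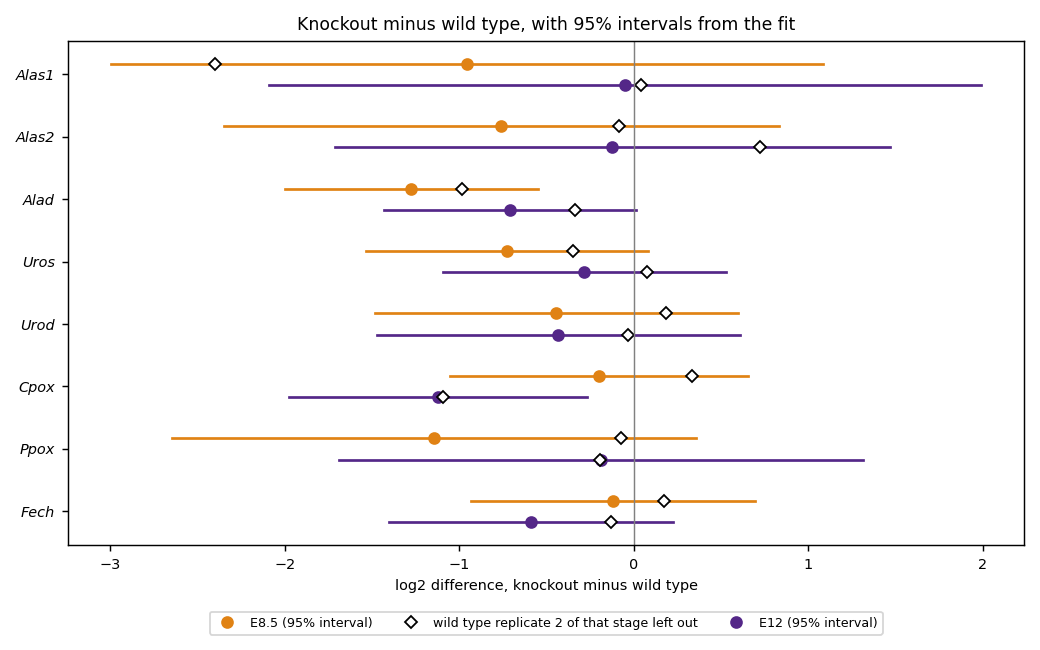
Log2 difference between knockout and wild type (horizontal axis) for each enzyme, at E8.5 in orange and at E12 in purple, with 95% intervals from the fit over all 8 arrays; diamonds give the difference without wild type replicate 2 of that stage. All circles lie below 0, and 6 of the 16 diamonds lie above it.

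*Alas1*, the housekeeping first enzyme, had no stable difference at E8.5 by its brightest probe set. Its wild-type arrays read 10.6 and 7.74 and its knockout arrays 8.65 and 7.80, so that a single wild-type array stood far above the rest. The difference was -0.96 (SE 0.85, 95% interval -2.99 to 1.08). It became 0.49 without wild type replicate 1, and -2.40 (adjusted p = 0.0150) without wild type replicate 2, where the lone array is assumed to vary like the other groups. The dimmer *Alas1* probe set did not overlap at E8.5, with wild-type arrays at 7.23 and 6.05 and knockout arrays at 5.74 and 5.80. Its difference was -0.87 at E8.5 (SE 0.36, 95% interval -1.74 to 0.001) and 0.02 at E12. The array at 10.6 was the one with trophoblast genes, such as *Tpbpa* at 9.52, which the other arrays of that stage had at 4.15 to 4.24. Of 10 trophoblast genes listed, 6 were measured, with means of 5.24 to 5.59 over the E12 arrays. *Hmox1*, which breaks haem down, was also highest there, at 7.87 against 4.28 to 5.68, and was named after its values were seen. The part of the trophoblast RNA in the *Alas1* value was not tested. At E12 its wild-type arrays read 7.63 and 7.81 and its knockout arrays 7.52 and 7.81, a difference of -0.05 (SE 0.85, 95% interval -2.09 to 1.99). The fit gives all groups 1 spread, which the E8.5 wild-type arrays enter.

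*Alas2*, the red-cell isoform of the same step, overlapped between genotypes at both stages. At E8.5 the wild-type arrays read 6.92 and 8.28 and the knockout arrays 7.28 and 6.401, a difference of -0.76 (SE 0.66, 95% interval -2.35 to 0.83). At E12 the wild-type arrays read 9.23 and 10.9 and the knockout arrays 9.93 and 9.99, a difference of -0.12 (SE 0.66, 95% interval -1.71 to 1.47). The 2 E12 knockout arrays thus lay between the 2 wild-type arrays. Without E12 wild type replicate 2 the difference was 0.73. A difference of -1 lies within both intervals and one of 1 within that of E12, so the arrays do not show whether *Alas2* was alike in the 2 genotypes.

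*Uros*, which closes the ring, read 8.33 and 9.09 with *Runx1* and 8.03 and 7.93 without it at E8.5. Its E12 wild-type arrays read 8.06 and 8.77 and the knockout arrays 7.94 and 8.33. The genotypes were apart at E8.5 and overlapped at E12, with differences of -0.73 (SE 0.34, 95% interval -1.54 to 0.08) and -0.28 (SE 0.34). The dimmer *Uros* probe set was apart at both stages, at -0.33 each (SE 0.17 each). *Urod*, which trims the side chains of the ring, read 10.5 and 11.7 with *Runx1* against 10.66 and 10.69 without it at E8.5, and 10.2 and 11.03 against 10.18 and 10.20 at E12. Its knockout replicates were within 0.04 of each other at each stage, and its differences were -0.44 and -0.43 (SE 0.43 each). Without wild type replicate 2 of the stage they were 0.18 and -0.033. The dimmer *Urod* probe set overlapped at both stages, with -0.03 at E8.5 and -0.33 at E12.

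*Ppox*, protoporphyrinogen oxidase, was dim. Its brightest probe set read 5.11 and 7.25 with *Runx1* and 4.85 and 5.22 without it at E8.5, and 5.19 and 5.18 against 5.18 and 4.81 at E12. A single array, E8.5 wild type replicate 2, stood clear of the others. The differences were -1.15 at E8.5 (SE 0.63) and -0.19 at E12 (SE 0.63). The 3 *Ppox* probe sets did not give 1 answer at E8.5, with -1.15, -0.52 and 0.37.

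*Fech* encodes ferrochelatase, the last enzyme. Its E8.5 wild-type arrays read 8.34 and 8.93 and its knockout arrays 8.39 and 8.63, which overlapped, with a difference of -0.12 (SE 0.34). Its E12 wild-type arrays read 8.96 and 9.89 and its knockout arrays 8.81 and 8.86, apart by -0.59 (SE 0.34, 95% interval -1.40 to 0.22). Without E12 wild type replicate 2 this was -0.13. Of its 4 probe sets, 3 were lower in knockout at E12 (-0.59, -0.78 and -0.78) and the dimmest gave 0.02. At E8.5 the other 3 probe sets gave 0.06, 0.48 and 0.04.

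Over all 19 probe sets of the enzymes, 16 were lower in knockout at E12 and 14 at E8.5, against 47.5% and 53.1% of all probe sets. None passed an adjusted p of 0.05 (limma) in either comparison. In each, 2 had an unadjusted p below 0.05, against 1.58% at E12 and 4.73% at E8.5. The probe sets of a gene share its RNA and are not separate evidence.

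**Figure D3:**
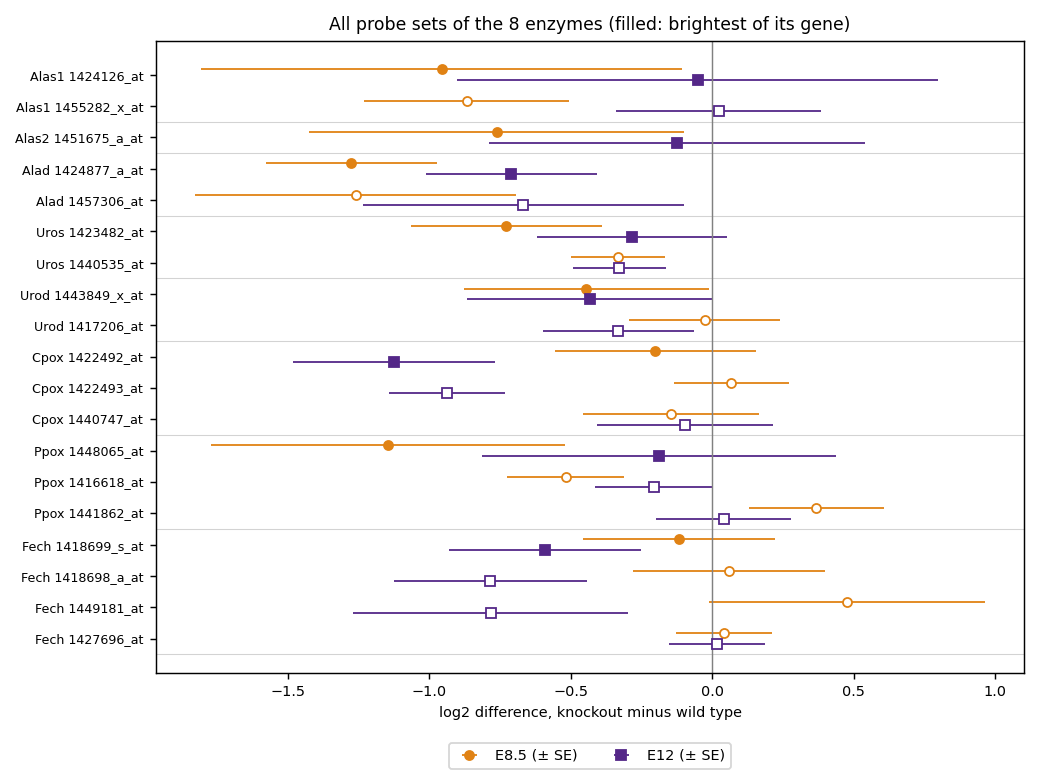
Log2 difference between knockout and wild type ± SE (horizontal axis) for all 19 probe sets, named by gene and probe set, with E8.5 as orange circles and E12 as purple squares; the probe set used for the gene is filled. The 2 brighter *Cpox* probe sets lie at -1.12 and -0.94 at E12, and both *Alad* probe sets lie below 0 at both stages.

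Averaged over stages, all 8 enzymes were lower in knockout, by -0.35 to -0.99, against 51.2% of all probe sets below 0. None was called (limma, 0.00222% of all probe sets), and 2 of 8 (*Alad* and *Cpox*) had an unadjusted p below 0.05, against 4.36%. The difference of the knockout effect between stages was called for none (limma, 0.00444% of all probe sets), with 0 of 8 at an unadjusted p below 0.05, against 1.87%. It was below 0 for 2 of 8 (*Cpox* and *Fech*), against 45.4%.

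The array that was highest for most enzymes was also highest for red-cell genes. Among 20 red-cell genes (globins, membrane and blood group proteins, 20 of 24 listed), wild type replicate 2 was the highest of the 4 arrays for 14 at E8.5 and for 14 at E12, against 31.8% and 26.8% of all probe sets. Relative to the mean of the 4 arrays of their stage, these 20 genes averaged 0.89 in that replicate at E8.5, where the other arrays gave -0.17, -0.32 and -0.40. At E12 they averaged 0.49 in it and -0.04, -0.28 and -0.17 in the others. The 8 enzymes averaged 0.66 and 0.54 in those 2 arrays, and lay between -0.38 and 0.05 in the other 6. *Hbb-y*, an embryonic globin, read 13.6 in that replicate at E8.5, where the other arrays lay at 9.02 to 9.74. Lower values in knockout were found for 20 of 20 red-cell genes at E8.5 (median -0.34) and for 15 of 20 at E12 (median -0.49). None was called, and 53.1% and 47.5% of all probe sets were lower. For *Hbb-y*, *Hbb-bh1*, *Gypc*, *Sptb*, *Slc4a1*, *Kel* and *Trim10*, E8.5 wild type replicate 1 lay below both knockout arrays. Their lower mean in knockout thus came from wild type replicate 2. The other red-cell genes did not have replicate 1 below both. How much of the enzymes' differences goes with red-cell content was not tested. At E12 the 2 wild-type arrays of *Cpox* were 0.53 and 0.60 above the stage mean, where the mean of the red-cell genes was at -0.04 and 0.49. Single red-cell genes varied around that mean. *Ermap* read 9.38 and 9.68 in wild type against 8.29 and 8.27 in knockout, and *Slc4a1* 9.73 and 10.7 against 9.64 and 9.53. The relation of *Cpox* to red-cell content was not tested.

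**Figure D4:**
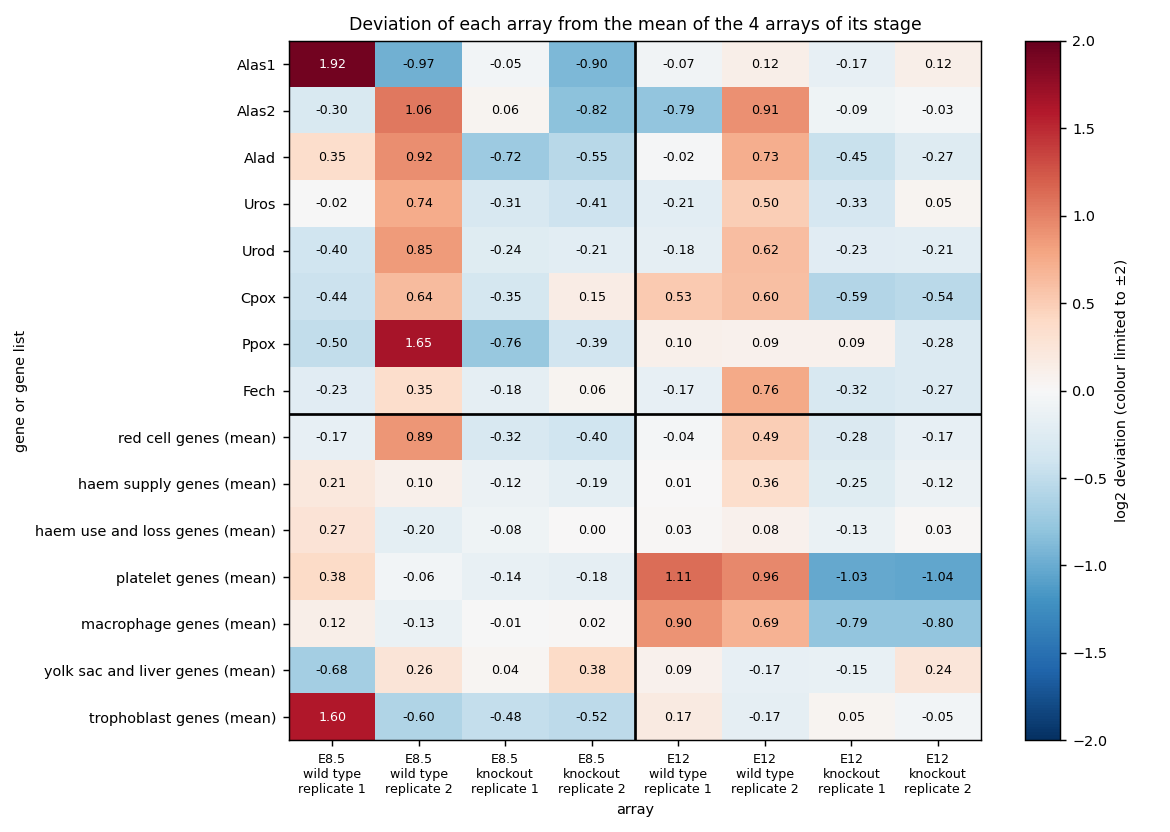
Deviation of each array (columns) from the mean of the 4 arrays of its stage, in log2 units, for each enzyme and for the mean of each gene list (lines of the map); red is above and blue below the stage mean, with colour limited to 2 units. E8.5 and E12 wild type replicate 2 are red for most enzymes and for red-cell genes, and trophoblast genes and *Alas1* are highest in E8.5 wild type replicate 1.

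The second question was how the enzymes changed between E8.5 and E12. *Alas2* rose in both genotypes. In wild type it went from 7.60 ± 0.96 to 10.08 ± 1.201, a difference of 2.48 (SE 0.66, 95% interval 0.89 to 4.07, 5.57-fold, adjusted p = 0.0349). In knockout it went from 6.84 ± 0.62 to 9.96 ± 0.04, a difference of 3.12 (SE 0.66, 95% interval 1.53 to 4.71, 8.67-fold, adjusted p = 0.0181). Every E12 array was above every E8.5 array, and quantile normalization gave 3.34 (adjusted p = 0.00958) and 3.82 (adjusted p = 0.00712). The wild-type rise kept its size and lost its call without E12 knockout replicate 1 or 2 (adjusted p = 0.0732 each) or without E8.5 knockout replicate 1 or 2 (adjusted p = 0.0543 each). It was 1.80 without E8.5 wild type replicate 1 (adjusted p = 0.0821) and 1.63 without E12 wild type replicate 2 (adjusted p = 0.124). The call also ended with each genotype fitted alone (adjusted p = 0.127), with array weights (adjusted p = 0.0534) and with a pseudocount of 16 (adjusted p = 0.0527). The knockout rise was 3.55 and 2.68 without E8.5 knockout replicate 1 and 2 (adjusted p = 0.0521 and 0.111), and 3.15 and 3.09 without E12 knockout replicate 1 and 2 (adjusted p = 0.105 and 0.103). The rise was not shown to differ between genotypes (0.64, SE 0.94, 95% interval -1.61 to 2.89).

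*Cpox* fell with stage in knockout, from 7.03 ± 0.36 to 5.29 ± 0.03, by -1.74 (SE 0.36, 95% interval -2.59 to -0.88, 3.34-fold lower, adjusted p = 0.0161). After quantile normalization the value was -1.70 (adjusted p = 0.0134). It lost its call without E8.5 knockout replicate 2 (-1.48, adjusted p = 0.102), E12 knockout replicate 1 (-1.71, adjusted p = 0.103) or E12 knockout replicate 2 (-1.76, adjusted p = 0.0923). In wild type it went from 7.23 ± 0.76 to 6.41 ± 0.05, by -0.81 (SE 0.36, adjusted p = 0.140). The 2 brighter *Cpox* probe sets had opposite signs in wild type, the second going from 6.04 and 5.92 in the E8.5 arrays to 6.11 and 6.15 in those of E12.

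The other enzymes were not called as deposited by their brightest probe sets. As means, 6 of 8 enzymes were lower at E12 in wild type, against 50.5% of all probe sets, and 5 of 8 in knockout, against 47.9%. Among probe sets with a mean log2 of at least 6, 72.2% were lower in wild type and 72.5% in knockout. Of the 7 enzymes in that set, 5 and 4 were lower. In wild type the arrays of the 2 stages did not overlap for 4 of 8, with *Alas2* and *Fech* higher at E12 and *Alad* and *Cpox* lower, against 30.7% of all probe sets each way. In knockout *Alas2* and *Fech* were again higher in both E12 arrays, and *Alad*, *Urod* and *Cpox* lower in both, against 38.7% higher and 36% lower. Of all probe sets, 27.8% were called in wild type and 25.6% in knockout, against 1 and 2 of the 8 enzymes. *Fech* went from 8.63 ± 0.41 to 9.42 ± 0.65 in wild type (0.79, adjusted p = 0.133) and from 8.51 ± 0.17 to 8.83 ± 0.04 in knockout (0.32, adjusted p = 0.538). After quantile normalization its differences were 1.70 (adjusted p = 0.00829) and 1.11 (adjusted p = 0.0315), both called. *Alad* was lower at E12 as deposited, by -0.84 in wild type and -0.28 in knockout, and higher after quantile normalization, by 0.51 and 0.78. *Urod* turned likewise, from -0.49 and -0.48 to 0.86 and 0.69. In wild type 2 of 8 enzymes were higher at E12 as deposited and 5 of 8 after quantile normalization, and in knockout 3 and 6 of 8. *Alas2* and *Fech* higher, *Uros* higher in knockout, *Alas1* lower in wild type, and *Cpox* and *Ppox* lower, kept their sign in both scalings. These are the signs of the brightest probe sets.

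The other probe sets did not all follow. Of the 19 probe sets, 4 were called for stage in wild type and 6 in knockout, beside the 27.8% and 25.6% of all probe sets. *Ppox* was lower at E12 in its brightest probe set alone. A second was higher in both genotypes, by 1.69 (SE 0.24, adjusted p = 0.00483) and 1.36 (SE 0.24, adjusted p = 0.00970), and the third by 0.57 (adjusted p = 0.0865) and 0.88 (adjusted p = 0.0249). *Ppox* thus had no single direction with stage. The dimmest *Fech* probe set was called higher in both genotypes, by 1.19 (adjusted p = 0.00501) and 1.16 (adjusted p = 0.00576). The dimmer *Alas1* probe set was called lower in wild type, by -1.35 (SE 0.36, adjusted p = 0.0354), and the second *Cpox* probe set lower in knockout, by -0.85 (SE 0.20, adjusted p = 0.0265).

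**Figure D5:**
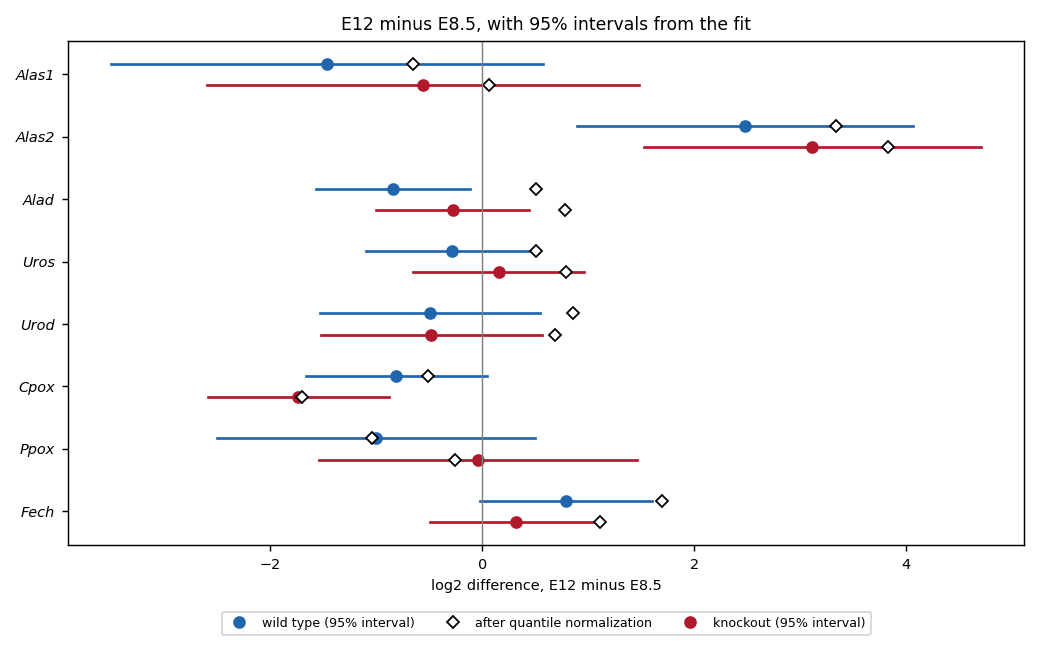
Log2 difference between E12 and E8.5 (horizontal axis) for each enzyme, blue for the wild-type and red for the knockout embryos, with 95% intervals from the fit over all 8 arrays; diamonds give the value after quantile normalization. *Alas2* lies to the right of 0 in both genotypes and both scalings, *Cpox* to the left, and *Alad* and *Urod* change side.

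Red-cell genes moved the same way as *Alas2* with stage. In wild type 17 of 20 were higher at E12, 8 of them called higher (median 1.37), and in knockout 18 of 20, 8 of them called higher (median 1.84), beside 12.1% and 11.6% of all probe sets called higher. Of 11 yolk sac and liver genes, 10 were lower at E12 in each genotype, 7 of them called in wild type and 10 in knockout, with a mean over 11 genes of 10.4 to 11.4 in E8.5 arrays against 7.06 to 7.47 in E12 arrays. The exception was *Alb*, the albumin of liver cells, at 4.27 to 4.55 in E8.5 arrays and 10.1 to 11.3 in E12 arrays, called higher in both genotypes. Which tissues the embryo propers held at each stage was not tested.

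Genes that supply the pathway with glycine, succinyl-CoA and iron or carry its intermediates were examined next. At E12, 17 of 20 measured genes were lower in knockout (median -0.34), against 47.5% of all probe sets. None was called, and 4 had a t below -3, against 0.473%. Relative to the stage mean, the list averaged 0.01 and 0.36 in E12 wild type replicates 1 and 2. It averaged -0.25 and -0.12 in the knockout replicates. *Steap3*, an iron reductase of red-cell precursors, had wild-type arrays at 7.31 and 7.35 and knockout arrays at 5.65 and 5.99, a difference of -1.51 (SE 0.37). *Tfr2*, a second transferrin receptor, differed by -0.70 (SE 0.19). *Tmem14c*, which carries a porphyrin into the mitochondrial matrix, differed by -0.80 (SE 0.23). *Slc25a38*, the mitochondrial glycine carrier that feeds 5-aminolevulinate synthase, differed by -0.71 (SE 0.21), from wild-type arrays at 7.57 and 7.59 and knockout arrays at 6.77 and 6.97. For each of these 4 the knockout arrays lay below both wild-type arrays, against 15.8% of all probe sets. They were named for their t in this same comparison, so this adds no support. At E8.5, 16 of 20 were lower (median -0.26), against 53.1% of all probe sets. *Steap3* at -1.46 (SE 0.37) and the porphyrin transporter *Abcb6* at -0.73 (SE 0.22) were past a t of -3 there, against 1.18%. With stage, 8 of 20 were called lower and 2 higher in wild type, against 15.7% and 12.1% of all probe sets, and 8 lower and 3 higher in knockout, against 14.1% and 11.6%. Called or not, 13 of 20 were lower at E12 in wild type and 14 in knockout, against 50.5% and 47.9% of all probe sets. Of probe sets with a mean log2 of at least 6, 72.2% and 72.5% were lower.

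Genes that use, export or break down haem gave no such direction. At E12, 9 of 15 were lower (median -0.06) and at E8.5, 8 of 15 (median -0.18), against 47.5% and 53.1% of all probe sets. None was called. The highest absolute t at E12 were those of *Hebp1*, a haem-binding protein (-0.65, SE 0.26), and *Hp*, haptoglobin (-0.49, SE 0.23). *Flvcr2* was past a t of 3 upwards at E8.5 (0.63, SE 0.21).

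Regulators of the pathway included *Gata1*, the transcription factor of red cells and megakaryocytes. Its E12 wild-type arrays read 8.13 and 8.005 and its knockout arrays 6.43 and 6.62, a difference of -1.54 (SE 0.23, t = -6.66, adjusted p = 0.699). The E8.5 wild-type arrays read 8.37 and 7.94 and the knockout arrays 7.60 and 8.07, which overlapped. Over the 15 regulators, 11 were lower in knockout at each stage (median -0.42 at E12 and -0.18 at E8.5), none called. Of all probe sets, 47.5% and 53.1% were lower. *Eif2ak1*, the haem-regulated kinase that restrains translation when haem is short, differed by -0.33 (SE 0.16) at E8.5, and *Nfe2* by -1.15 (SE 0.61). *Klf1* and *Nfe2* were also apart at E12, which was noticed after their values were seen. They were not alone in this. *Zfpm1*, *Tal1*, *Eif2ak1*, *Nrf1*, *Aco1*, *Epor*, *Stat5a* and *Stat5b* had both knockout arrays below both wild-type arrays too. *Bach1*, *Ppargc1a*, *Ireb2* and *Jak2* overlapped. Such lower arrays were found for 15.8% of all probe sets. *Klf1* had wild-type arrays at 8.94 and 8.84 and knockout arrays at 7.46 and 7.54, and *Nfe2* had them at 6.79 and 6.56 and at 5.38 and 5.26. Neither passed a t of -3.

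*Gata1* and *Nfe2* also act in megakaryocytes, and markers of platelets and of macrophages were lower in the E12 knockout. All 10 platelet genes were lower (median -1.63) and 3 were called, *Pf4* (-5.71, limma, adjusted p = 0.00176), *Ppbp* (-3.34, adjusted p = 0.0325) and *Tubb1* (-2.95, adjusted p = 0.0327). Of all probe sets, 47.5% were lower and 0.0133% were called. All 10 macrophage genes were lower as well (median -1.26), with *Ctss* (-3.29, adjusted p = 0.00537) and *Lyz1* (-3.41, adjusted p = 0.0335) called. Their mean levels were close in the 2 E12 wild-type arrays (platelet list 7.17 and 7.02, macrophage list 6.76 and 6.55). Levels of *Cpox* (6.38 and 6.45), *Gata1* and the red-cell regulator *Klf1* (8.94 and 8.84) were close there too. The part of platelet, macrophage or red-cell RNA in the values of *Cpox* and *Gata1* was not tested.

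The genes whose values over the 8 arrays lay closest to those of *Alas2* were sought by the root mean square difference of log2 values centred on the mean of the stage. Among 34926 probe sets with 1 gene symbol, the closest 5 genes were *Ncam1* (0.18), *Zkscan1* (0.25), *Psme4* (0.29), *Coa8* (0.29) and *Supt16* (0.30), where the median over all was 0.68. Each was highest at its stage in wild type replicate 2, as *Alas2* was, and none was on the red-cell list. *Ncam1* was read from a dim probe set, at 3.76 to 5.67. The closest red-cell gene was *Trim10* (0.35), and the closest enzymes were *Urod* and *Uros* (0.36 each), while *Cpox* (0.68) and *Alas1* (1.13) were farther away. These distances rest on 2 arrays per group and carry no test.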

How the data were processed

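RNA was extracted in Trizol, amplified in 2 rounds and hybridized to Affymetrix whole-genome mouse expression arrays. The authors summarized and normalized the probes with Robust Multi-array Analysis and deposited an intensity per probe set on the linear scale. The sources used here give neither software versions nor detection calls. Deposited intensities were put on a log2 scale without a pseudocount, 64 of 45101 probe sets were left out as controls, and no filter on dim probe sets was applied. Gene symbols were those of the platform annotation after an update with a RefSeq table: 34945 probe sets had 1 symbol, 932 several and 9160 none.

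Group means were fitted over all 8 arrays with limma 3.58.1 in R 4.3.3 (lmFit, eBayes). The adjusted p is that of Benjamini and Hochberg over 45037 probe sets, with a threshold of 0.05, and 95% intervals are from the same fit. The absolute t above 3 of the study's methods was a second rule, with no correction. The fit was tested on simulated data. Related genes were named by list: those past either threshold, up to 4 per list and stage, or the leading 2 by absolute t where none passed. The members, lists and rules were chosen with earlier results of these data known. Lists covered haem supply, use and loss, and regulators, red cells, platelets, macrophages, yolk sac and liver, and trophoblast. With 2 arrays per group their number limits the precision, and p-values reflect only the spread among these arrays, which may be partly technical. Groups came from the sample titles. Replicates differed in every probe set. Alternatives were quantile normalization, a filter at a mean log2 of 6, a pseudocount of 16, a replicate block, each stage or genotype alone, array weights, the mean of a gene's probe sets, each array left out, and, chosen after seeing the data, wild type replicate 2 left out at both stages.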

Additional observations from a re-analysis of the deposited data

How the results depend on the processing

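Of 362 values recomputed under alternatives other than leaving out 1 array, 323 kept their direction and side of the threshold, 25 changed sign, and 14 crossed the threshold. Many of these directions were fixed in advance. In this design the replicate block, each stage or genotype fitted alone, and the array weights cannot change a difference. The weights were equal within each group, and these settings could move a call only. The count of enzymes called at E12, at E8.5 and in the average over stages went from 0 to 1 each with an absolute t above 3, which 0.655%, 2.06% and 1.79% of all probe sets passed. For the wild-type stage comparison, 1 enzyme was called as deposited (27.8% of all probe sets), 2 after quantile normalization (20.4%), 2 with the replicate block (27.3%), and 0 with each genotype fitted alone (4.58%), with array weights (17.7%) or with a pseudocount of 16 (25.2%). Quantile normalization turned the wild-type stage differences of Alad (0.51), Uros (0.50) and Urod (0.86), the knockout ones of Alas1 (0.060), Alad (0.78) and Urod (0.69), and the between-stage difference of the knockout effect of Urod (-0.17). The mean of a gene's probe sets turned Fech at E8.5 (0.12), the between-stage difference of Urod (-0.15), the wild-type stage differences of Uros (0.044) and Ppox (0.42), and the knockout ones of Alad (0.12) and Ppox (0.73). Leaving out wild type replicate 2 at both stages, chosen after seeing the data, left 5 of 8 enzymes lower in knockout at each stage (51% of all probe sets at E8.5 and 53.5% at E12) and called 2 at E8.5 (7.13% of all probe sets), 2 in the average (8.06%) and 3 in the wild-type stage comparison (39.2%). It turned Alas1 (0.040), Alas2 (0.73) and Uros (0.073) at E12, Urod (0.18), Cpox (0.34) and Fech (0.18) at E8.5, the averages of Alas2 (0.32), Urod (0.075) and Fech (0.023), the between-stage differences of Urod (-0.21) and Ppox (-0.12), and the wild-type stage difference of Ppox (0.076).

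With each array left out in turn, the enzymes called ranged from 0 to 0 at E12, 0 to 1 at E8.5, 0 to 1 in the average, 0 to 4 for stage in wild type and 0 to 2 for stage in knockout, and those lower in knockout from 5 to 8 at each stage. Calls over all probe sets moved too. The 1 call at E8.5 and the 1 in the average came without E8.5 wild type replicate 2, where 4.31% and 2.5% of all probe sets were called, and the 4 for stage in wild type without E8.5 wild type replicate 1, where 31.5% were. Over all 8 such fits the share called for stage was 13.6% to 31.5% in wild type and 5.16% to 35.7% in knockout. The lone array left in a group was assumed to vary like the other groups. Knockout differences that took both signs ranged from -2.40 to 0.49 for Alas1, -1.07 to 0.18 for Urod, -0.74 to 0.34 for Cpox and -0.41 to 0.18 for Fech at E8.5, from -0.20 to 0.096 for Alas1, -0.97 to 0.73 for Alas2 and -0.64 to 0.073 for Uros at E12, and from -1.23 to 0.22 for Alas1 in the average. Between-stage differences ranged from -0.54 to 2.35 for Alas1, -0.21 to 1.49 for Alas2, -0.61 to 0.64 for Urod and -0.11 to 2.03 for Ppox. Stage differences ranged from -0.67 to 0.090 for Uros, -1.12 to 0.13 for Urod and -2.07 to 0.070 for Ppox in wild type, and from -0.23 to 0.14 for Ppox and -0.037 to 0.35 for Uros in knockout. Causes were not tested.

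The labels number replicates 1 and 2 in each group. Deviations of same-numbered arrays correlated across probe sets at 0.37 between genotypes at E8.5 and 0.17 at E12, and at -0.12 to 0.076 between stages. The labels name no litter, batch or day that a number marks. The correlation was over 0.1 within each stage and not between stages, so the numbers were not taken as pairs over both stages. The replicate block was common to both stages, so a pairing within each stage was not tested. Within E8.5 the actin 3′ minus 5′ difference also went with the number. With the replicate block, 0 enzymes were called at E12 and 0 at E8.5, 2 for stage in wild type (Alas2 and Alad, at -0.84 with adjusted p = 0.0349) and 2 for stage in knockout.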
